A study of Rattus norvegicus with 28 samples.

Results

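Tectb, Ppef1, Fhad1, Ccdc136, Fgf7 and Rnf185 were selected on the difference between VDR-OE and control muscles, where they were lower in every rat and are not known as members of one pathway. They are 6 of the 32883 rat genes in the count files, and were matched by the Ensembl identifier that the study pairs with each symbol: ENSRNOG00000015671 (Tectb), ENSRNOG00000027331 (Ppef1), ENSRNOG00000028064 (Fhad1), ENSRNOG00000007100 (Ccdc136), ENSRNOG00000009425 (Fgf7) and ENSRNOG00000019325 (Rnf185). All 6 passed the filter on low counts in both arms. RNA was sequenced from the tibialis anterior muscle of both legs of 14 male Wistar rats, which arrived at 8 weeks of age, were acclimatised for 1 week and were killed after an overnight fast, 10 days after electrotransfer of the constructs into muscle fibres. Every rat received carprofen (50 mg/kg), an anti-inflammatory analgesic.

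The muscles fell into 4 groups of 7. VDR-OE muscles (right leg, rats 416 to 422, labelled IVE VDR knock-in) received a plasmid with the mouse vitamin D receptor, and their VDR-OE control muscles (left leg, Sham VDR knock-in) the empty plasmid, whose backbone is pCAGGS in the labels and pCMV6 in the study's methods. VDR-KD muscles (right leg, rats 423 to 429, labelled IVE VDR knock-out) received an shRNA against VDR and VDR-KD control muscles (left leg, Sham VDR knock-out) a scrambled shRNA. Each rat was thus its own control, an electrotransferred muscle holds fibres that took up the construct beside fibres and other cells that did not, and the arm, the rats and the kind of construct cannot be told apart in any comparison between the arms.

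The 6 genes have different roles. Tectb encodes beta-tectorin, a glycoprotein of the tectorial membrane of the inner ear, and has no established function in skeletal muscle. Fgf7, or keratinocyte growth factor, is secreted by mesenchymal cells such as fibroblasts and acts on epithelial cells through a splice form of the receptor Fgfr2. Ppef1 encodes a serine/threonine phosphatase with EF-hand calcium-binding domains, and Rnf185 a RING-type ubiquitin ligase of the endoplasmic reticulum and mitochondrial membranes with a role in the degradation of misfolded proteins. Fhad1 encodes a protein with a forkhead-associated domain, a fold that binds phosphorylated threonine, and Ccdc136 a coiled-coil protein; both are little studied in muscle.

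Promoter windows were available for 4 of the 6 genes in the RefSeq table of the rat assembly GRCr8, each running from 250 bases before to 50 bases after the annotated start. They are shown because genes that are lower in the same muscles invite a look for shared words near their starts. The windows lie at chr1:264226713-264227012 (plus strand), chr4:58962946-58963245 (plus strand), chr3:133735377-133735676 (plus strand) and chr14:82553417-82553716 (minus strand), and capitals mark the words that were searched for and found.
Tectb: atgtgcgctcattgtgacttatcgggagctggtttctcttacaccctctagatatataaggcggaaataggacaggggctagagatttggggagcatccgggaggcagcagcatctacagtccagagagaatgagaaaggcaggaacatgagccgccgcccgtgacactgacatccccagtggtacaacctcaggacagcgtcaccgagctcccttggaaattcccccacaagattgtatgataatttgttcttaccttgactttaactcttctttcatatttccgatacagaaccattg
Ccdc136: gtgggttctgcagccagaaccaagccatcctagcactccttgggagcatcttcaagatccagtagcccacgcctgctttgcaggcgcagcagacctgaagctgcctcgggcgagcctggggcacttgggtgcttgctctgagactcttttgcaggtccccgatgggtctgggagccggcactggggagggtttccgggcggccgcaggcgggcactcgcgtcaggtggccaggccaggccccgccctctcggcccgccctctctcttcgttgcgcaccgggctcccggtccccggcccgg
Fgf7: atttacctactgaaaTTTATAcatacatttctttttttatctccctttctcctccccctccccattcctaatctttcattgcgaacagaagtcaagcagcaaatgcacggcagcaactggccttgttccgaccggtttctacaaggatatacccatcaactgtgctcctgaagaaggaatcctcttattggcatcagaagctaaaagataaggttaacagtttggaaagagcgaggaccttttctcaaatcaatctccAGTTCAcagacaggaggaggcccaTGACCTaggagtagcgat
Rnf185: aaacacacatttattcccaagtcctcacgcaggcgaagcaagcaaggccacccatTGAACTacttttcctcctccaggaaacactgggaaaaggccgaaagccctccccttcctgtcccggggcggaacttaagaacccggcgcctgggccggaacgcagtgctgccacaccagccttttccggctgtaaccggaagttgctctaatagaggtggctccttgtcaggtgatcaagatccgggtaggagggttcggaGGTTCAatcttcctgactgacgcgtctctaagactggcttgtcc

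On both strands the search covered TGATGCAA, the core of the C/EBP-ATF composite element, TGACGTCA (the cAMP response element), CAGCTG (a muscle E-box) and the TATA box word TATAAA. It also covered the nuclear receptor half-site AGGTCA and variants of it, here called the second (AGTTCA) and the third half-site (GGTTCA). The last item was the DR3 type of vitamin D response element. DR3 is 2 of these half-sites on 1 strand spaced 3 bases apart and therefore overlaps them. Counting the annotated start as 0, the Fgf7 window held the TATA box word on the other strand at -235, the second half-site at 8 and AGGTCA on the other strand at 32. The Rnf185 window held the second half-site on the other strand at -195 and the third half-site at 6. None of the searched words occurred in the Tectb or Ccdc136 windows, and no window held the composite element core, the cAMP response element, the E-box or DR3. Over all 33469 promoter windows of this length, 0.795% held the composite element core, 1.83% the cAMP response element, 15.1% the E-box, 14.2% the TATA box word, 16.2% the half-site AGGTCA, 14.5% the second and 11.7% the third half-site and 0.0777% DR3, so that the half-sites found in Fgf7 and Rnf185 are common words. The windows also differed in base composition, with a GC content of 43.7% for Fgf7, 48.7% for Tectb, 56% for Rnf185 and 68.7% for Ccdc136, against a median of 51.7%.

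Between 36684220 and 46312167 reads were counted on genes per muscle. Levels are given as CPM, the reads of a gene scaled to a common library total, with library totals adjusted by the trimmed mean of M-values (TMM); they are not divided by gene length, so levels are compared between muscles and not between genes. Vdr averaged 2409 ± 2043 CPM (SD, n = 7) in VDR-OE against 4.25 ± 1.57 CPM (SD, n = 7) in VDR-OE control muscles, with reads of the mouse transgene counted on the rat gene. Rat 419 stood apart, with 5.75 CPM of Vdr in its control and 5.45 CPM in its VDR-OE muscle. In the other arm the shRNA did not give a uniform fall: Vdr was at 4.15 ± 2.47 CPM in VDR-KD control and 3.25 ± 1.64 CPM in VDR-KD muscles (SD, n = 7 each), lower in 4 of 7 rats (log2 fold change -0.26, adjusted p = 0.839, edgeR's quasi-likelihood test with Benjamini-Hochberg adjustment), so VDR-KD below means the muscles labelled so. Rats 423 and 425 also stood apart in that arm: their log2 ratios between legs over 15112 genes had a correlation of -0.69 and -0.54 with the mean of the other rats, against 0.21 to 0.41 for the remaining 5 rats. In the VDR-OE arm rat 416 stood apart in the same way, at -0.08 against 0.32 to 0.70 for the other 6 rats. The names of skeletal muscle fibre, endothelial, Schwann cell, adipocyte and satellite cell markers are not among the 1998 genes for which the sources used here pair a symbol with an identifier, so the tissue was not checked by its markers.

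**Figure D1:**
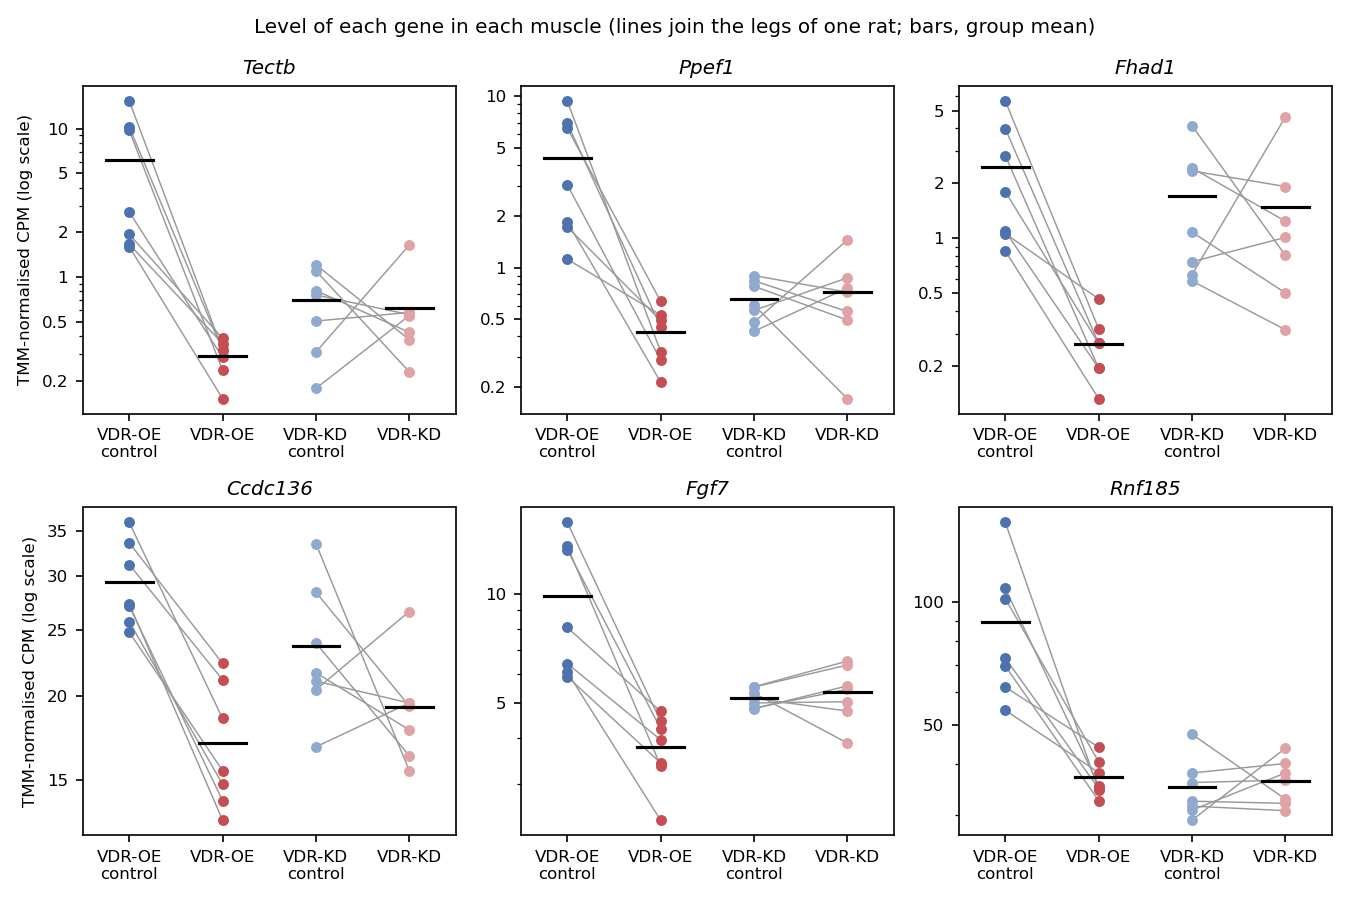
TMM-normalised CPM (log scale) of the 6 genes in each of the 28 muscles, with points for muscles, grey lines joining the legs of 1 rat and black bars at the group mean (n = 7). In each panel the 7 VDR-OE muscles lie below the 7 VDR-OE control muscles, whereas in the VDR-KD arm the groups overlap and the lines cross.

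Each of the 6 genes was below its control level in the right leg of 7 of 7 rats of the VDR-OE arm, which was so for 5.63% of the 15112 genes that passed the filter over all muscles. For each of the 6 the highest VDR-OE muscle lay below the lowest control muscle, which 1.28% of all genes showed. EdgeR's quasi-likelihood test called 3.06% of the 14526 genes tested in this arm lower at an adjusted p of 0.05, and the 6 genes were among them; since this contrast chose the genes, the values are a description and no test of them is given.

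Tectb had the widest difference. In VDR-OE control muscles it ranged from 1.6 CPM to 15.4 CPM with a median of 2.74 CPM, and in VDR-OE muscles from 0.151 CPM to 0.385 CPM with a median of 0.319 CPM. Within rats the log2 ratio was -3.83 ± 1.41 (SD, n = 7), from -5.53 in rat 420 to -2.19 in rat 417. The VDR-OE values rested on 7 to 16 reads per muscle, and their coefficient of variation, 26.9%, was no wider than the 28.4% that counting alone would give. The control muscles rested on 50 to 680 reads and varied by 89.9% around their mean, against 6.24% from counting. The gene thus went from a level that differed 9.67-fold between the control legs to a low level in which the VDR-OE muscles could not be told apart at this depth.

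Ppef1 and Fhad1 showed the same shape. Ppef1 ranged from 1.12 CPM to 9.41 CPM in VDR-OE control muscles (median 3.05 CPM) and from 0.215 CPM to 0.637 CPM in VDR-OE muscles (median 0.452 CPM), with a log2 ratio within rats of -3.04 ± 1.26 (SD, n = 7). Fhad1 ranged from 0.851 CPM to 5.66 CPM in control muscles (median 1.8 CPM) and from 0.132 CPM to 0.465 CPM in VDR-OE muscles (median 0.265 CPM), with a log2 ratio of -2.95 ± 1.04 (SD, n = 7). In VDR-OE muscles these genes were counted at 10 to 30 and 6 to 17 reads, and their coefficients of variation of 35.6% and 41.4% stood beside counting values of 23.6% and 30.3%. For both genes the control muscles spread more widely than that, at 73.6% for Ppef1 and 73.2% for Fhad1.

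Fgf7 ranged from 5.91 CPM to 15.7 CPM in VDR-OE control muscles (median 8.07 CPM) and from 2.38 CPM to 4.74 CPM in VDR-OE muscles (median 3.96 CPM). Its log2 ratio within rats was -1.29 ± 0.55 (SD, n = 7). Rnf185 ranged from 54.2 CPM to 157 CPM in control muscles (median 72.8 CPM) and from 32.5 CPM to 44 CPM in VDR-OE muscles (median 35.4 CPM), a log2 ratio of -1.18 ± 0.60 (SD, n = 7). With at least 1203 reads in every muscle of this arm, Rnf185 was the member with the least counting error, and its VDR-OE muscles varied by 10.8% around their mean against 40.1% in the controls.

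Ccdc136 differed least but most evenly. It ranged from 24.8 CPM to 36 CPM in VDR-OE control muscles (median 27.3 CPM) and from 13.1 CPM to 22.3 CPM in VDR-OE muscles (median 15.5 CPM). The log2 ratio within rats was -0.80 ± 0.20 (SD, n = 7), between -1.06 in rat 420 and -0.56 in rat 416. It was also the single member whose VDR-OE muscles were no less spread out than their controls (SD of log2 CPM 0.30 and 0.20), whereas for the other 5 genes the SD was 1.82 to 3.53 times larger in the control than in the VDR-OE muscles. Over all genes the SD was larger in VDR-OE control muscles for 63.8%, with a median ratio of 1.17.

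The wide control values came from the same legs. Control muscles of rats 416, 420 and 421 held the 3 highest values of Tectb, Ppef1, Fhad1, Fgf7 and Rnf185, and for Ccdc136 the 3 highest were those of rats 416, 417 and 421. For Tectb these 3 muscles had 9.73 CPM, 15.4 CPM and 10.3 CPM, while the other 4 control muscles had 1.6 CPM to 2.74 CPM. Rats 416, 420 and 421 had the largest mean falls over the 6 genes, with mean log2 ratios of -3.02, -3.05 and -2.72 against -1.91 to -1.15 in the other 4 rats. Each ratio has the same control value as its base, so the high control levels and the large falls are not separate observations. Without rat 416 the fitted log2 fold changes were -3.74 for Tectb, -2.81 for Ppef1, -2.88 for Fhad1, -0.83 for Ccdc136, -1.18 for Fgf7 and -1.10 for Rnf185, beside -3.94, -3.09, -3.03, -0.79, -1.29 and -1.18 with all 7 rats. In rat 419, whose VDR-OE muscle had no higher Vdr level than its control, the values were as follows, their direction being fixed by the choice of genes that were lower in every rat: the log2 ratio was -3.32 for Tectb, -3.05 for Ppef1, -2.43 for Fhad1, -0.80 for Ccdc136, -0.79 for Fgf7 and -1.10 for Rnf185. In rat 422, where Vdr was highest at 5938 CPM, the corresponding ratios were -3.21, -1.08, -2.59, -0.68, -1.35 and -0.49. The falls in rat 422 were thus smaller than those in rat 419 for Tectb, Ppef1, Ccdc136 and Rnf185 and larger for Fhad1 and Fgf7, with 1 muscle pair behind each value.

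**Figure D2:**
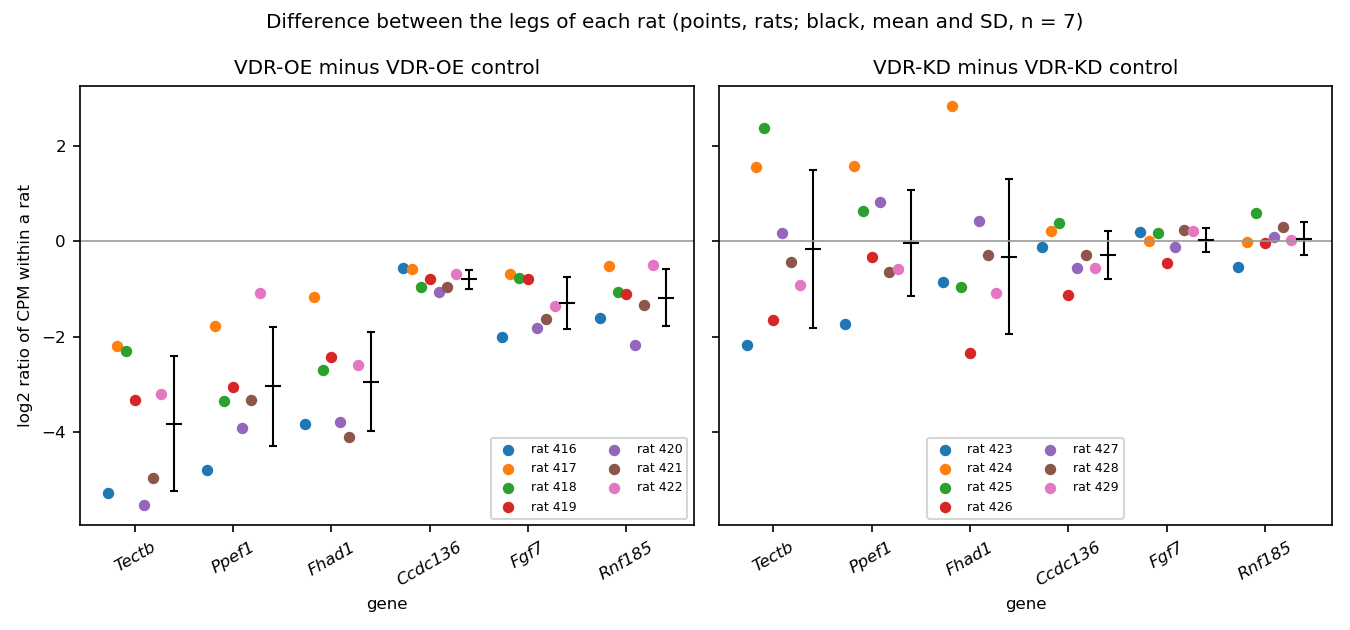
Log2 ratio of CPM between the right and left leg of each rat for the 6 genes, in the VDR-OE arm (left panel) and the VDR-KD arm (right panel), with a colour per rat and black marks for the mean and SD (n = 7). In the VDR-OE arm every point lies below 0, and in the VDR-KD arm the points of each gene lie on both sides of 0.

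The VDR-KD arm took no part in the choice of the genes. Of 14652 genes tested there, 0 (0%) passed an adjusted p of 0.05 and 395 (2.7%) an unadjusted p of 0.05 in edgeR's quasi-likelihood test with the animal as a block; the likelihood ratio test and DESeq2 called 0 genes as well, with 401 and 625 at the unadjusted threshold. None of the 6 genes was among those called at either threshold. Their adjusted p-values in edgeR's quasi-likelihood test were 0.918 for Tectb, 0.997 for Ppef1, 0.828 for Fhad1, 0.803 for Ccdc136, 0.911 for Fgf7 and 0.875 for Rnf185. A miss of the threshold does not show that the legs were alike, and for the low genes the spread between rats was wide.

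Tectb ranged from 0.177 CPM to 1.21 CPM in VDR-KD control muscles (median 0.756 CPM) and from 0.229 CPM to 1.64 CPM in VDR-KD muscles (median 0.548 CPM). The log2 ratio within rats was -0.16 ± 1.66 (SD, n = 7) and lay between -2.18 in rat 423 and 2.37 in rat 425, with 4 rats lower and 3 higher. The fitted log2 fold change was -0.19, and became 0.13 without rat 423 and -0.61 without rat 425. The 2 rats that stood apart over all genes therefore sat at the opposite ends for Tectb.

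Ppef1 ranged from 0.425 CPM to 0.899 CPM in VDR-KD control muscles (median 0.606 CPM) and from 0.172 CPM to 1.45 CPM in VDR-KD muscles (median 0.72 CPM), a log2 ratio of -0.04 ± 1.11 (SD, n = 7) with 4 rats lower. Fhad1 ranged from 0.583 CPM to 4.14 CPM in controls (median 1.08 CPM) and from 0.315 CPM to 4.61 CPM in VDR-KD muscles (median 1.01 CPM), a log2 ratio of -0.32 ± 1.63 (SD, n = 7) with 5 rats lower. Rat 424 stood at the upper end for both, with log2 ratios of 1.57 and 2.84. The fitted log2 fold change of Fhad1, -0.39, was -0.86 without rat 424 and -0.05 without rat 426, and between -0.55 and -0.27 without any other rat. Fhad1 had the widest range of levels of the 6 genes between VDR-KD muscles, at 14.6-fold, with 11 reads in the lowest (rat 423). Its ratios within rats spread no more widely than those of Tectb (SD 1.66).

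Ccdc136 ranged from 16.8 CPM to 33.5 CPM in VDR-KD control muscles (median 21.6 CPM) and from 15.5 CPM to 26.6 CPM in VDR-KD muscles (median 19.3 CPM). It was lower in 5 of 7 rats, by a mean log2 ratio of -0.29 ± 0.51 (SD, n = 7), and had the smallest unadjusted p of the 6 genes (0.141, adjusted p = 0.803, edgeR's quasi-likelihood test). Scaling by library size alone reduced its fitted log2 fold change from -0.28 to -0.05. Under that scaling the median gene shifted by 0.24 on the log2 scale between these legs, against 0.00 after TMM scaling.

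Fgf7 was steady in this arm. It ranged from 4.82 CPM to 5.54 CPM in VDR-KD control muscles (median 5.15 CPM), a coefficient of variation of 5.86% against 6.86% from counting alone, and from 3.88 CPM to 6.52 CPM in VDR-KD muscles (median 5.45 CPM). The log2 ratio was 0.04 ± 0.25 (SD, n = 7). Rnf185 ranged from 29.1 CPM to 47.3 CPM in controls (median 32.4 CPM) and from 30.7 CPM to 43.7 CPM in VDR-KD muscles (median 36.5 CPM), a log2 ratio of 0.06 ± 0.34 (SD, n = 7) with 4 rats higher. The lowest ratios in this arm were -0.46 for Fgf7 (rat 426) and -0.53 for Rnf185 (rat 423), beside ratios of -2.01 to -0.69 and -2.18 to -0.49 in the VDR-OE arm, so that the ranges overlapped for Rnf185.

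The 4 groups set side by side by their mean log2 CPM placed the VDR-OE control muscles highest for all 6 genes. The VDR-OE muscles had the lowest mean for each of them except Rnf185. The mean log2 CPM of VDR-OE control muscles exceeded that of VDR-KD control muscles by 2.81 for Tectb, 2.38 for Ppef1, 1.28 for Rnf185, 0.82 for Fgf7, 0.57 for Fhad1 and 0.33 for Ccdc136. The value for Fhad1 moved between 0.32 (without the control muscle of rat 421) and 0.84 (without that of rat 426) when single muscles were left out, and was 0.38 without rat 423. For Tectb, Ppef1, Fgf7 and Rnf185 every VDR-OE control muscle lay above every VDR-KD control muscle, as was so for 0.47% of all genes. These are descriptions with no test, because VDR-OE control muscles are one side of the contrast that chose the genes.

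Against the VDR-KD arm, the VDR-OE muscles were placed differently from gene to gene. Rnf185 in VDR-OE muscles (mean log2 CPM 5.21 ± 0.15, SD, n = 7) sat at the level of VDR-KD control (5.11 ± 0.24) and VDR-KD muscles (5.17 ± 0.19), so that its order was VDR-OE control first and the other 3 groups within their spread of each other. Fhad1 was the reverse, with VDR-OE control (0.99 ± 1.04), VDR-KD control (0.42 ± 1.10) and VDR-KD muscles (0.09 ± 1.25) within their spread and VDR-OE muscles below (-1.96 ± 0.56). Tectb and Ppef1 lay between: VDR-OE muscles were 0.94 and 0.64 lower on the log2 scale than the mean of the 14 muscles of the VDR-KD arm, and all 7 were below the median of those 14, but 1 and 0 of them were below the lowest. Fgf7 was 0.49 lower and Ccdc136 0.32 lower on the same scale, with 3 muscles of each below the lowest of the 14.

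Every VDR-OE muscle lay below every VDR-KD control muscle for Fhad1 and Fgf7, where 0.0993% of all genes did. For Fgf7 the gap was within counting error. The highest VDR-OE muscle had 4.74 CPM and the lowest VDR-KD control muscle 4.82 CPM, with counting values of 7.87% and 6.86%. For Fhad1 the corresponding levels were 0.465 CPM and 0.583 CPM, with counting values of 30.3% and 11.8%. None of the 6 genes had all VDR-OE muscles below all VDR-KD muscles, against 0.0993% of all genes. Without rat 423 this was so for Fhad1 and for 0.662% of all genes. These comparisons are between different rats, and the VDR-OE muscles are one side of the contrast that chose the genes.

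The levels of the 6 genes rose and fell together over the 28 muscles. All 15 pairs had a positive Spearman correlation of log2 CPM, with a median rho of 0.67, from 0.16 for Fhad1 and Rnf185 to 0.87 for Tectb and Ppef1. Part of this is fixed by the choice of genes that are all lower in the same 7 muscles, so the group means were also removed. The 15 pairs then still had positive values, with a median rho of 0.46, from 0.21 for Ccdc136 and Fgf7 to 0.74 for Tectb and Ppef1. These are descriptions over muscles of which each pair shares a rat, and all genes in a muscle share a library and its scaling.

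**Figure D3:**
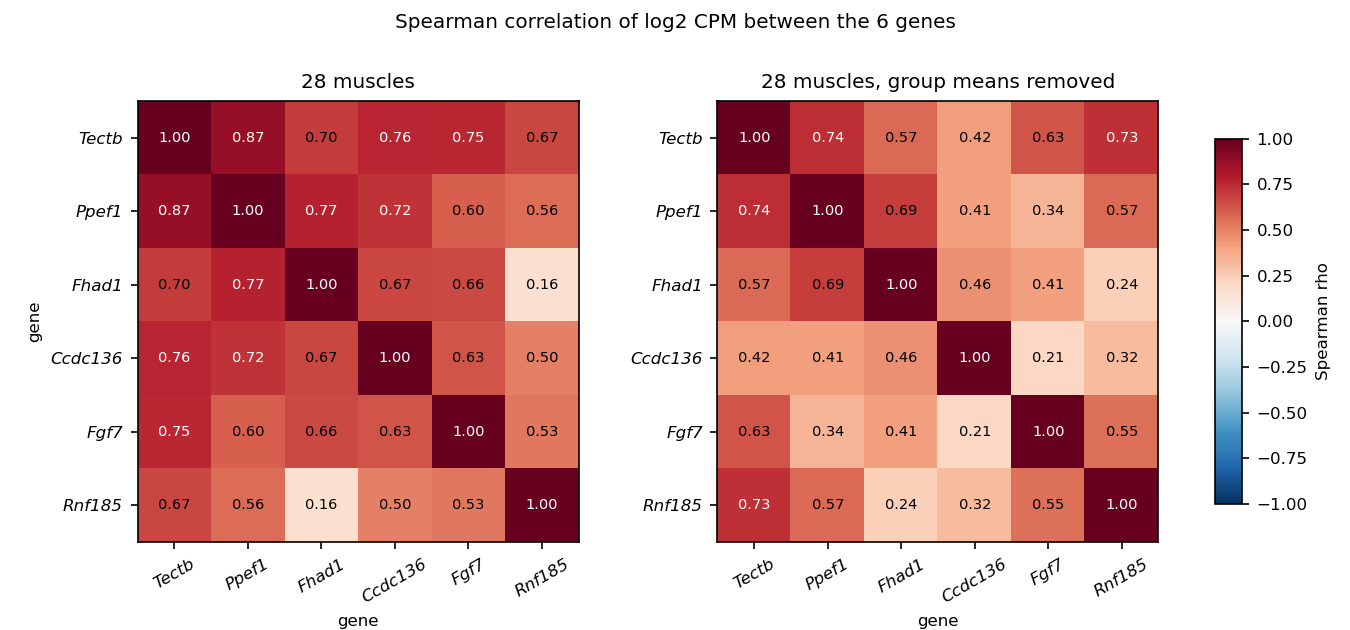
Spearman correlation of log2 CPM between the 6 genes over 28 muscles (left panel) and after removal of the group means (right panel), on a colour scale from -1 to 1. All values off the diagonal are above 0, and Tectb with Ppef1 is the closest pair in both panels (0.87 and 0.74).

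Within groups the picture was uneven. In VDR-OE control muscles all 15 pairs were positive, with a median rho of 0.75 and a highest value of 0.93 for Ppef1 and Rnf185. In VDR-OE muscles, where the genes were low and counting error made up much of the spread of 3 of them, 11 of 15 were positive with a median of 0.18. With group means removed, the 14 muscles of the VDR-OE arm gave a median rho of 0.77 with 15 of 15 pairs positive, and the 14 muscles of the VDR-KD arm one of 0.25 with 11 of 15 positive. The scatter of Tectb against Ppef1 and Rnf185 shows the VDR-OE control muscles of rats 416, 420 and 421 at the upper right, apart from the other 25.

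**Figure D4:**
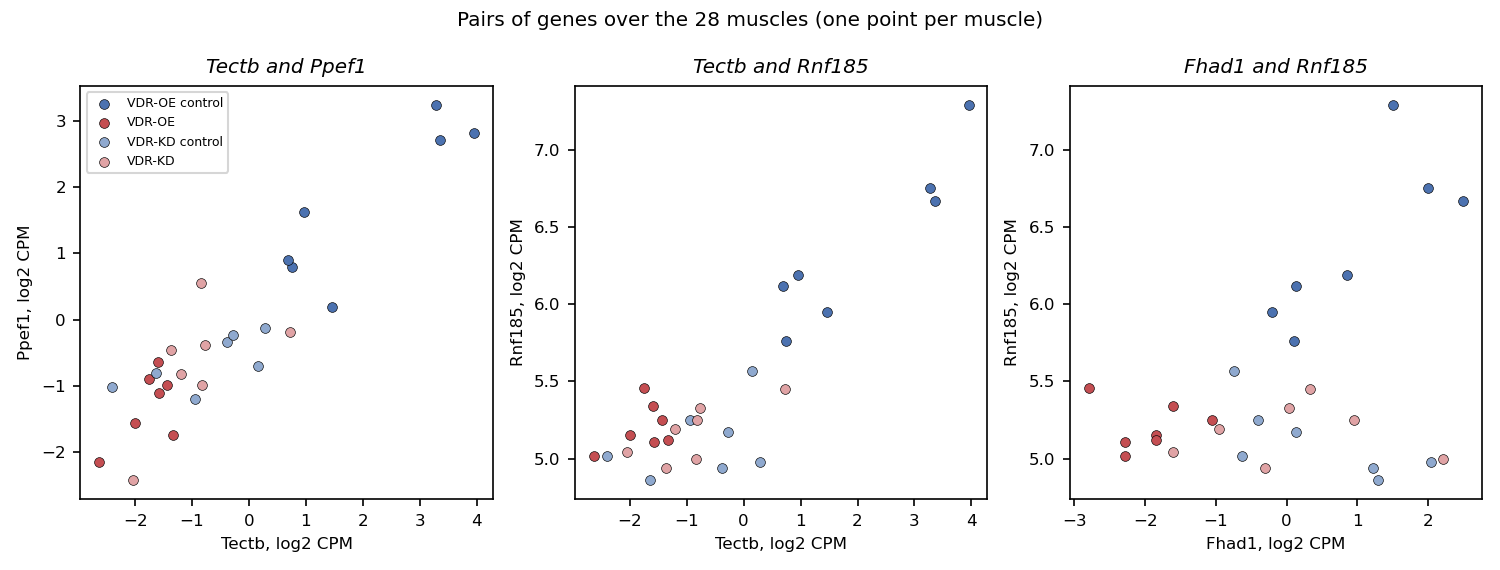
Log2 CPM of Tectb against Ppef1, Tectb against Rnf185 and Fhad1 against Rnf185, with 1 point per muscle coloured by group (n = 7 each). The 3 VDR-OE control muscles with the highest Tectb levels also have the highest levels of Ppef1 and Rnf185, and Fhad1 with Rnf185, the pair with the lowest rho (0.16), shows VDR-KD control muscles that are high in Fhad1 and low in Rnf185.

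The correlations that the choice of genes did not use are those within the VDR-KD arm. Of the 30 tested there (15 pairs in 7 VDR-KD control and 15 pairs in 7 VDR-KD muscles), 0 passed an adjusted p of 0.05 for Pearson's r or for Spearman's rho in two-sided exact permutation tests, with 2 and 3 at an unadjusted p of 0.05. Both signs occurred: 12 of 15 values of r were positive in either group, with medians of 0.36 and 0.32. For Tectb and Ppef1 r was 0.69 in VDR-KD control muscles (rho 0.79; exact permutation p = 0.0883 and 0.048, adjusted 0.466 and 0.48) and 0.68 without the 2 muscles farthest from the median of Tectb. In VDR-KD muscles the same pair had an r of 0.61 (rho 0.57; exact permutation p = 0.16 and 0.2, adjusted 0.515 and 0.667), which fell to 0.24 without the 2 farthest muscles, so that it rested on them.

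The highest value in VDR-KD muscles was that of Ppef1 and Fhad1, with an r of 0.79 (rho 0.64; exact permutation p = 0.0409 and 0.139, adjusted 0.466 and 0.521) that became -0.06 without the 2 farthest muscles. Tectb and Rnf185 had an r of 0.77 there (rho 0.82; exact permutation p = 0.0288 and 0.0341, adjusted 0.466 and 0.48), and 0.59 without the 2 farthest. The lowest value was that of Fhad1 and Rnf185 in VDR-KD control muscles, with an r of -0.71 (rho -0.79; exact permutation p = 0.0657 and 0.048, adjusted 0.466 and 0.48) and -0.64 without the 2 farthest, whereas the same pair had a rho of 0.82 in VDR-OE control muscles.

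Among the 1930 genes with a symbol that passed the filter over all muscles, those most like each of the 6, the 6 themselves left out, were found by Spearman's rho of log2 CPM over the 28 muscles. The symbols belong to genes with the smallest p-values for VDR-OE in the study's own fit, so such a list is not a sample of all genes. For Tectb they were Nars (0.93), an asparaginyl-tRNA synthetase, Fut1 (0.93), a fucosyltransferase, and Fgf21 (0.92), a secreted hormone of the fibroblast growth factor family. For Ppef1 they were Fgf21 (0.88), Inhbe (0.85), an inhibin beta subunit, and Fut1 (0.85). Over the 14 muscles of the VDR-KD arm alone the values were 0.84, 0.90 and 0.89 for Tectb and 0.65, 0.76 and 0.54 for Ppef1.

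For Fhad1 the closest genes were Asns (0.85), asparagine synthetase, Manba (0.84), a lysosomal mannosidase, and Pck2 (0.84), the mitochondrial phosphoenolpyruvate carboxykinase. For Ccdc136 they were Lars (0.86), a leucyl-tRNA synthetase, Ghitm (0.85), a protein of the inner mitochondrial membrane, and Aimp1 (0.84), which belongs to the multi-tRNA synthetase complex. For Fgf7 they were Zc3h15 (0.83), Phf10 (0.82) and Farsb (0.81), a subunit of phenylalanyl-tRNA synthetase. For Rnf185 they were Etf1 (0.92), a translation release factor, Tgs1 (0.88), which trimethylates RNA caps, and Zfp598 (0.88), a ubiquitin ligase of collided ribosomes. In the VDR-KD arm alone the values, in the same order, were 0.85, 0.74 and 0.67 for Fhad1 and 0.85, 0.74 and 0.74 for Ccdc136. For Fgf7 they were 0.74, 0.45 and 0.58 there, and for Rnf185 0.90, 0.80 and 0.86. With group means removed over the 28 muscles, the neighbours of the 6 genes lay between 0.55 (Zc3h15 for Fgf7) and 0.86 (Zfp598 for Rnf185). With the 6 genes left in the ordering, Tectb (0.87) took the 2nd place of 1929 named genes for Ppef1, and Ppef1 the 7th for Tectb. The nearest of the 6 was Ppef1 at place 16 for Fhad1 and Tectb at place 16 for Fgf7. Tectb was also the nearest for Ccdc136, at place 57, and for Rnf185, at place 172. The farthest place was that of Fhad1 for Rnf185, at 678. These places rest on the rho over the 28 muscles, which include the contrast that chose the genes.

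The summed level of 13 named genes of the integrated stress response, among them Fgf21 and Asns, ranged from 371 CPM to 962 CPM in VDR-OE control and from 253 CPM to 304 CPM in VDR-OE muscles, against 265 CPM to 423 CPM in VDR-KD control and 258 CPM to 460 CPM in VDR-KD muscles. Genes have a symbol here because of small p-values for VDR-OE. All 13 were lower in VDR-OE, beside 7337 of 14526 genes tested, so that choice partly fixes their levels in this arm and the rho over 28 muscles. The mean log2 CPM of these genes had a rho with the 6 genes over 28 muscles of 0.58 for Rnf185 to 0.89 for Tectb. After removal of the group means it was 0.16 for Ccdc136 to 0.75 for Tectb, and over the 14 muscles of the VDR-KD arm 0.10 for Ccdc136 to 0.71 for Tectb. In the VDR-KD arm 8 of the 13 were higher, with a median log2 fold change of 0.06, and 0 were called, beside a median of 0.01 over all genes tested.

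Each member was set in a list of genes of a related pathway, protein family or domain, and few of these had a symbol. A place on such a list does not make a gene a partner of the member. The FGF7 pathway list had 4 of 26 named, of which Fgfr1, Fgfr4 and the heparan sulphate proteoglycan Sdc1 were not lower in any VDR-OE leg (fitted log2 fold changes 0.34, 0.44 and 1.03) while Fgf7 was lower in 7 of 7. In the VDR-KD arm all 4 had a fitted log2 fold change above 0, with a median of 0.09, and 0 were called. The calmodulin-linked phosphatase list had 3 of 13 named, Ppef1 and the calcineurin regulators Rcan1 and Rcan2 (log2 fold changes in VDR-OE -0.57 and -0.56, in VDR-KD -0.03 and -0.18). The list for Rnf185 and degradation from the endoplasmic reticulum had 3 of 25 named, with the ubiquitin-conjugating enzyme Ube2d3 (-0.33 in VDR-OE and 0.05 in VDR-KD) and Ubxn4 (-0.26 and 0.06), each lower in 7 of 7 VDR-OE legs. The forkhead-associated domain list had 3 of 15 named, with Tifa at 1.05 and Foxk2 at -0.22 in VDR-OE. Tectb was the 1 named gene of 10 tectorial membrane proteins. No gene of these lists was called in VDR-KD muscles, and in VDR-OE muscles the direction of named genes is not independent of how they came to have a symbol.

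Fgf7 is a product of fibroblasts, so its level was set beside their markers. Of 7 fibroblast markers 6 were named, none of them at 0 in any group. All 6 had a higher fitted level in VDR-OE than in control muscles, with a median log2 fold change of 0.84, while Fgf7 was lower. Of all 14526 genes tested in this contrast, 7189 had a higher fitted level. Genes have a symbol here because of small p-values for VDR-OE in the study's own fit. The direction of the named markers is therefore not independent of that choice, and markers without a symbol were not seen. The same holds for the macrophage markers given below. The 6 fibroblast markers summed to 1519 CPM to 5207 CPM in VDR-OE control and 2199 CPM to 8549 CPM in VDR-OE muscles. Their sums in the VDR-KD arm were 2842 CPM to 8723 CPM in controls and 2583 CPM to 8751 CPM in VDR-KD muscles. Over the 28 muscles the mean log2 CPM of the fibroblast markers had a rho of -0.45 with Fgf7, which was 0.05 after removal of the group means. With Rnf185 the rho was -0.83, and -0.53 after that removal. Of 7 macrophage markers 4 were named, and all 4 were higher in VDR-OE muscles with a median log2 fold change of 1.42, at a summed level of 124 CPM to 454 CPM in VDR-OE control and 319 CPM to 1019 CPM in VDR-OE muscles. In the VDR-KD arm their summed level was 301 CPM to 1127 CPM in controls and 250 CPM to 1699 CPM in VDR-KD muscles, with a median log2 fold change of 0.59 and 0 of 4 called, so that the VDR-OE muscles lay within the range of the VDR-KD arm and the VDR-OE controls reached below it. The part of these cells in the levels of the 6 genes was not tested, and in whole muscle fewer cells of a type and less RNA per cell cannot be told apart.

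In the RefSeq annotation of GRCr8, which is not the build of the count files, 4 of the 6 genes overlap another gene. Tectb overlaps Gucy2g, Ppef1 overlaps Mt1f, Fgf7 overlaps Fam227b and Rnf185 overlaps LOC134481864. The sources used here do not say whether reads were counted by strand, so reads shared with these neighbours cannot be told apart from those of the 6 genes. Fhad1 and Ccdc136 had no such overlap.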

How the data were processed

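RNA-Seq was performed by the authors on 28 rat muscles with a TruSeq kit and 75 bp paired-end reads. Reads were trimmed with trimmomatic, unpaired reads dropped, and reads aligned to rat genome 6.0 and counted per gene (Ensembl release 89) with Rsubread. The submitters' processing notes list FastQC 0.11.5, bcl2fastq 2.17.1.14 and edgeR 3.18.1. The authors deposited raw counts per gene, without normalisation.

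From these, genes were kept with a CPM above that of a count of 10 (0.239 in the VDR-OE and 0.251 in the VDR-KD arm) in at least 7 muscles. Each arm was fitted with edgeR 4.0.16 in R 4.3.3 with TMM scaling, the animal as a block and the quasi-likelihood test, used in place of glmFit's likelihood ratio test, and Benjamini-Hochberg adjustment. The pairing comes from the animal in the labels; deviations from group means had a mean correlation of 0.24 between legs of a rat in the VDR-OE and of -0.11 in the VDR-KD arm, against -0.04 and 0.02 between rats. Log2 CPM used a prior count of 0.5. Correlations were tested with exact permutations. The alternatives were the likelihood ratio test, DESeq2 1.42.0, no block, other scalings, filters and prior counts, a fit of all muscles and leaving out each rat. The scripts were tested on simulated data.

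The 6 genes and all gene lists were chosen with earlier results of these data known. Genes named are the 6, Vdr, the 3 named genes other than the 6 with the highest rho to each of them, and list-mates that a sentence turns on. No 2 muscles held identical counts, and any pair of muscles from one group differed beyond counting noise (lowest chi-square over its degrees of freedom 28.5). Counting values in the text are 100 divided by the square root of the mean count, and cover counting error only.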

Additional observations from a re-analysis of the deposited data

Results flagged for a closer look

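Each of the 6 genes was checked for a muscle far from the rest of its group, in 36 sets of 7 values (4 groups and 2 sets of within-rat ratios per gene), against Dixon's critical value. Chance alone exceeds it in about 1 in 20 sets, and 1 set did: Ccdc136 in the VDR-KD muscle of rat 425, at a log2 CPM of 4.74 (26.6 CPM, from 1007 reads), lay above the other VDR-KD muscles, which ranged from 15.5 CPM to 19.5 CPM. Rat 425 also had the highest VDR-KD levels of Tectb and Rnf185.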

How the results depend on the processing

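In the VDR-KD arm 0 genes were called under each of the 15 alternatives (165 to 2635 at an unadjusted p of 0.05, the highest without rat 423), and no alternative called any of the 6 genes (adjusted p from 0.371 to 0.999). Of 90 alternative values of their log2 fold changes, 8 reversed. Tectb, -0.19 as reported, was 0.07 with scaling by library size alone (added after seeing the data) and ranged from -0.61 to 0.13 when each rat was left out, being 0.13 without rat 423 and 0.09 without rat 426. Ppef1, 0.01 as reported, was -0.0038 with DESeq2 and ranged from -0.27 to 0.25, below 0 without rat 424 (-0.27), 425 (-0.10) or 427 (-0.14). Rnf185, 0.06 as reported, ranged from -0.02 (without rat 425) to 0.16. Fhad1, -0.39 as reported, kept its direction but ranged from -0.86 (without rat 424) to -0.05 (without rat 426). The cause was not tested. Without the replicate block, Tectb was at -0.16, Ppef1 at 0.16, Fhad1 at -0.18, Ccdc136 at -0.29, Fgf7 at 0.06 and Rnf185 at 0.06, with 0 genes called.

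The 78 alternative values described for VDR-OE and the 102 for VDR-OE control against VDR-KD control moved by less than 1 SD between rats; the choice of genes bears on their direction, which is no sign of stability. The 2 alternatives for the correlations in the VDR-KD arm also gave 0. Depth limits Tectb, Ppef1 and Fhad1, which had 6 to 30 reads in VDR-OE muscles.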
